A study of Mus musculus with 24 samples.

Results

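Histone genes were followed in primitive erythroid cells of the mouse, the earliest red cell lineage, with probes of an Illumina bead array chosen by gene symbol. A probe was taken where its symbol marked a clustered histone gene (old names Hist1h, Hist2h, Hist3h or Hist4h, or their present names) or a variant histone of a short list. This gave 96 probes for 59 genes, among 45719 probes and 17583 gene symbols of the array. Of these, 91 probes belong to 54 clustered genes and 5 probes to 5 variant genes, which are H2ax (H2afx), Macroh2a1 (H2afy), H3f3b, H1f7 and H1f8. The variants H2az1, H2az2, H3f3a and H1f0 had no annotated probe and were not analysed here.

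Cells positive for GFP were collected by flow cytometry from transgenic embryos that express an H2B-EGFP fusion under the human epsilon-globin promoter, so every group carries an additional histone H2B transgene, and whether mouse H2B probes bind its RNA was not tested. After 2 rounds of RNA amplification there were arrays of E7.5 and E8.5 (n = 3 each). After 1 round there were 6 arrays of E8.5 and 3 arrays of each later day up to E12.5. Cells up to E9.5 came from digested whole embryos and cells from E10.5 onward from embryonic blood, each replicate was a pool up to E10.5 and a single embryo at E11.5 and E12.5, and the source of the cells therefore changes between E9.5 and E10.5.

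Histones package DNA into nucleosomes, with H2A, H2B, H3 and H4 in the core particle and H1 on the linker DNA. Clustered histone genes are copied into RNA mainly while DNA is replicated, and most of their messages end in a stem-loop in place of a poly(A) tail, though some of these genes also give polyadenylated messages. Variant histone genes lie outside the clusters and give polyadenylated messages through the cell cycle, and H2ax gives both kinds. The labelling used here starts from poly(A). Primitive erythroid cells divide in the blood stream, then stop dividing and condense their nuclei.

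All signals below are log2 values after background correction and quantile normalization, and a difference is a difference of group means on that scale. Tests covered each probe detected (p under 0.05) on 3 or more arrays of the fit, and a probe was called where the adjusted p of limma (Benjamini-Hochberg over all probes tested) was under 0.05. Over the 18 arrays with 1 round, 69 histone probes of 47 genes were tested, 66 clustered and 3 variant. Of all 96 probes, 52 were detected on every one of these arrays, 21 on none and 6 on only 1 or 2. The share of clustered probes that could be tested was 22 of 29 for H2A, 14 of 18 for H2B, 7 of 13 for H3, 21 of 24 for H4 and 2 of 7 for H1. The variants H1f7 and H1f8 were detected on none of the 24 arrays. Signals of different probes are not compared, near-identical copies of a histone gene may share RNA on a probe, and in such bulk samples fewer cells of a type and less RNA per cell cannot be told apart.

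The arrays lay on 4 slides of 6. The 6 arrays with 2 rounds shared a slide, E8.5 replicates 1 to 3 lay with E9.5, E8.5 replicates 4 to 6 with E12.5, and E10.5 with E11.5. The E8.5 arrays correlated at 0.986 to 0.992 within a slide and at 0.947 to 0.965 between slides. This split touched the histones: 46 of the 69 histone probes were higher on every E8.5 array of the first of these slides than on every E8.5 array of the other (66.7%, against 22.1% of all 17408 probes tested), with a median difference of 0.56 for histone probes and −0.01 for all probes. On E12.5 arrays 8542 to 10570 probes were detected, against 12355 to 15387 on the other arrays with 1 round. All 9 tested markers of primitive erythroid cells (among them Hba-x, Alas2 and Gata1) were detected on every array with 1 round, while the summed level of 7 visceral endoderm markers was 158 to 165 at E12.5 and 222 to 716 at E8.5 on the linear scale, with 6 of the 7 detected on no E12.5 array. The summed level of 6 endothelial markers was 1583 to 1833 at E12.5 and 387 to 574 at E8.5, with Kdr and Emcn higher and 4 of the 6 detected on no E12.5 array, and that of 2 macrophage markers was 44.6 to 53.1 at E12.5 and 73.4 to 145 at E8.5, with both detected on no E12.5 array. The part of these markers in the histone differences was not tested.

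4 clustered H2A genes carry the widest differences between E12.5 and E8.5, and the sequences around their starts are shown to make clear how far the copies resemble each other. H2ac18 (Hist2h2aa1, chr3:96245247-96245546, plus strand) and H2ac19 (Hist2h2aa2, chr3:96240325-96240624, minus strand) are neighbours that rose, and H2ac15 (Hist1h2ak, chr13:21753863-21754162, minus strand) and H2ac12 (Hist1h2ah, chr13:22035594-22035893, minus strand) fell. Each sequence runs 5′ to 3′ from 250 bases before to 50 bases after the start of the gene (RefSeq, GRCm38.p6), and capitals mark the TATA box letters TATAAA, the CCAAT box and the octamer ATTTGCAT on either strand.
H2ac18: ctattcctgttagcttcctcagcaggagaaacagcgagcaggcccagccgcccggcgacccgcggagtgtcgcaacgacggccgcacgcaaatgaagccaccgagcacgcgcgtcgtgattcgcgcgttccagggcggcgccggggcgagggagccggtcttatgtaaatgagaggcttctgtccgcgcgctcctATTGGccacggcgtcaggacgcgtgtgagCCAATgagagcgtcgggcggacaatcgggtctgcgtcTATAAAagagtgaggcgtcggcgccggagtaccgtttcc
H2ac19: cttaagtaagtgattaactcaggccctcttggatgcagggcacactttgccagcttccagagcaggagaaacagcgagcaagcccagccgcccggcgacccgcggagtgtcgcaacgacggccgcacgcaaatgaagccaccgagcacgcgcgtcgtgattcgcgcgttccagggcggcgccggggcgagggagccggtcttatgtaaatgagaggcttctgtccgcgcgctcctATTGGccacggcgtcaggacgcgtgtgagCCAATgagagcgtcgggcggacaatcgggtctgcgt
H2ac15: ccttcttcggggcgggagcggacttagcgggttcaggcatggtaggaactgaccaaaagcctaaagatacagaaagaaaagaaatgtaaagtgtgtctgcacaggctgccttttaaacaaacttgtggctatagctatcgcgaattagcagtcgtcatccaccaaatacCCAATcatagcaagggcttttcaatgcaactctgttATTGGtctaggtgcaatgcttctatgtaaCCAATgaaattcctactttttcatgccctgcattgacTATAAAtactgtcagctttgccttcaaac
H2ac12: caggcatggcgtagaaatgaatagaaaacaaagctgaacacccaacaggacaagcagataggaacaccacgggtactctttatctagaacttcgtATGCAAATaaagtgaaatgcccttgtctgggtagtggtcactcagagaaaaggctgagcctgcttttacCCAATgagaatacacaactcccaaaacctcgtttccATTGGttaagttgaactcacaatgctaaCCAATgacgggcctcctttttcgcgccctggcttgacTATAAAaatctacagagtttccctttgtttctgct

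The H2ac18 and H2ac19 windows share an unbroken stretch of 219 bases, offset by their annotated starts, while the longest stretch shared by H2ac15 and H2ac12 was 11 bases and none of the 4 other pairs shared more than 9. Promoter windows were at hand for 53 of the 59 histone genes, in 54 windows. The letters CCAAT, searched on both strands, stood in 44 of these 54 windows (81.5%) and in 37.4% of all 32851 promoter windows, TATAAA in 32 (59.3%) and 13.6%, and ATTTGCAT in 13 (24.1%) and 1.74%. CCAAT stood in every window of the clustered H1, H2A, H2B and H3 genes, against 3 of 11 H4 windows, and ATTTGCAT in 7 of 14 H2A windows, 5 of 13 H2B windows and none of the H1, H3 or H4 windows. Among clustered genes with a called difference in a single direction, CCAAT stood in 13 of 16 windows of genes higher at E12.5 and 8 of 9 of genes lower at E12.5, TATAAA in 10 of 16 and 6 of 9, and ATTTGCAT in 3 of 16 and 3 of 9.

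Histone signals differed among the stages from E8.5 to E12.5. Of the 69 tested probes, 59 differed among the 5 stages by the F test of limma (85.5%, against 72.9% of all probes tested). Their highest stage mean lay at E11.5 for 32 of the 59 probes (54.2%, against 14.3% of all 12695 probes that differed) and at E12.5 for 14 (23.7%, against 37.2%). It lay at E8.5 for 8, at E10.5 for 4 and at E9.5 for 1. The families differed in this count, since 17 of 19 H4 probes and 5 of 5 H3 probes had their highest mean at E11.5, while the 22 H2A probes were spread over all 5 stages. These counts depended on the scaling, since with median scaling, chosen here after seeing the data, 22 of 63 histone probes had their highest mean at E11.5 (34.9%, against 2.95% of all probes) and 27 at E12.5 (42.9%, against 82.8%), and the H4 probes split into 11 and 10.

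**Figure D1:**
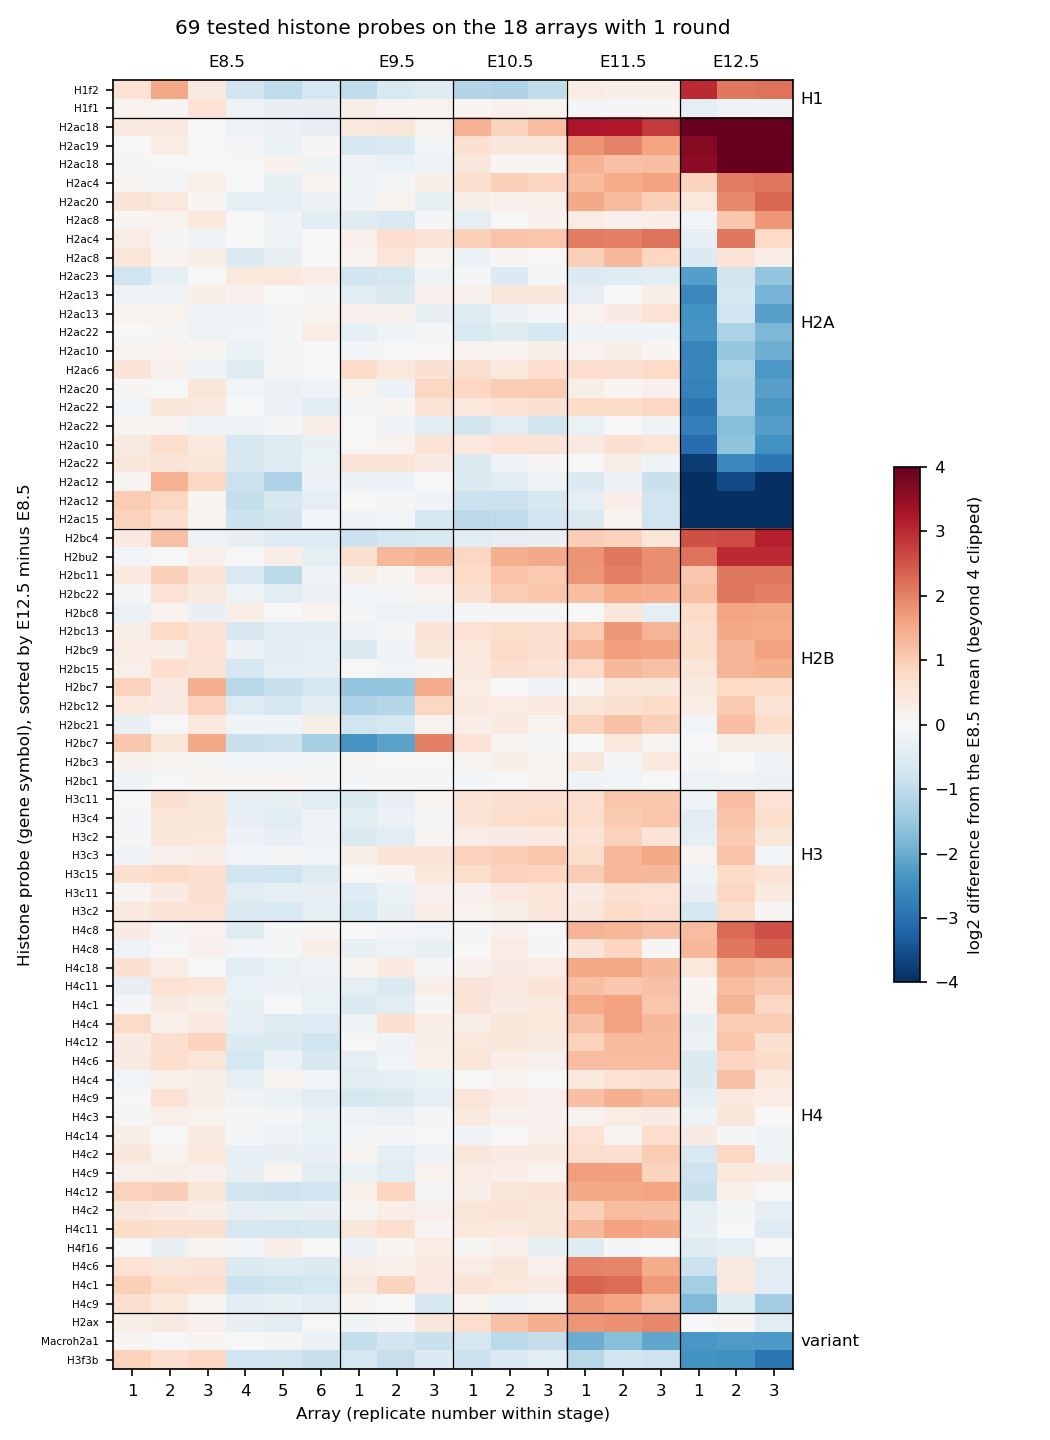
Difference of each of the 69 tested histone probes (rows, grouped by family and sorted by the E12.5 minus E8.5 difference) from its E8.5 mean on the 18 arrays with 1 round (columns, by stage), as log2 colour with values beyond 4 clipped. At E12.5 H2A probes lie at both ends of the scale, and most H4 probes are highest at E11.5 in these quantile-normalized values.

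Between E12.5 and E8.5, 22 histone probes rose and 18 fell, 40 of 69 (58%), against 67.3% called among all probes tested (32.2% higher and 35.1% lower). The arrays of the groups did not overlap for 29 of 69 histone probes and for 55.6% of all probes. The histone median difference was 0.16 and that of all probes −0.05. With the slide as a block 33 rose and 18 fell, beside 5277 higher and 5500 lower of all 17408 probes. Within the slide that holds E12.5 and E8.5 replicates 4 to 6, 27 rose and 18 fell, beside 4503 higher and 5283 lower. In both fits the called share of histone probes was above that of all probes. Against only the E8.5 arrays of the other slide 18 histone probes were higher and 23 lower, and with a replicate block 21 and 23. The split of all probes in these fits is not reported here, so whether it turned as well is left unstated. Median scaling in place of quantile normalization moved the median of all probes by about 2 log2 units, to 1.96, and gave 35 higher and 15 lower histone probes, with 88% of all calls higher against 47.8% in the quantile-normalized values. The histone median was then 0.65, below that of all probes. Cyclic loess gave 14 higher and 8 lower, beside 2101 higher and 2673 lower of all 17408 probes, a histone share slightly above that of all probes.

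H2A, the core histone with the most tested probes, had probes that moved in both directions. Of 22 clustered H2A probes, 7 rose and 14 fell at E12.5 against E8.5, with a median of −1.79. The same 7 and 14 counts were obtained with median scaling, normexp and the slide block, and cyclic loess gave 5 and 6 with a median of −0.15.

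H2ac18 rose most. Its probe ILMN_1231053 gave 9.57, 10.23 and 10.61 at E12.5, against a lowest, median and highest value of 4.69, 4.93 and 5.42 at E8.5. Its mean was 5.03 ± 0.32 at E8.5 (SD, n = 6), 5.36 ± 0.17 at E9.5 and 6.20 ± 0.27 at E10.5 (SD, n = 3). The E11.5 mean was 8.10 ± 0.25 and the E12.5 mean 10.14 ± 0.52 (SD, n = 3), and only these last steps, of 1.90 and 2.03, were called. The E12.5 and E8.5 arrays did not overlap, and the difference was 5.11 ± 0.22 (SE, limma adjusted p = 1.38e-14). It was detected on 5 of 6 E8.5 arrays.

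The other tested H2ac18 probe, ILMN_1254585, gave 8.35, 9.0 and 9.31 at E12.5, against 4.59, 4.76 and 4.94 as the lowest, median and highest E8.5 values. It was also detected on 5 of 6 E8.5 arrays, on none at E9.5 and on every later array. Its difference was 4.12 ± 0.17 (SE, limma adjusted p = 1.28e-14), or 2.56 with cyclic loess. A further H2ac18 probe, ILMN_1228849, was detected on only 1 of the 18 arrays with 1 round and was not tested. It lay at 4.40, 4.44 and 4.59 at E12.5, where no array detected it, so the rise was seen on the tested probes alone. H2ac19, whose start region is nearly that of H2ac18, gave 10.17, 10.99 and 11.22 at E12.5, against 6.23, 6.47 and 6.78 at E8.5. Its difference was 4.31 ± 0.20 (SE, limma adjusted p = 4.59e-14), with no overlap between the groups. Whether these probes bind the RNA of both genes was not tested.

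H2ac15 fell most. It gave 6.83, 7.17 and 7.91 at E12.5, against 11.59, 12.46 and 13.35 as the lowest, median and highest E8.5 values, a difference of −5.14 ± 0.33 (SE, limma adjusted p = 6.03e-12). Its mean was 12.44 ± 0.71 at E8.5 (SD, n = 6), 12.13 ± 0.32 at E9.5 and 11.505 ± 0.15 at E10.5 (SD, n = 3). The E11.5 mean was 12.03 ± 0.49 and the E12.5 mean 7.30 ± 0.55 (SD, n = 3), and of the daily steps only the last was called (−4.72).

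H2ac12 fell on both of its probes. ILMN_1246108 gave 6.89, 6.92 and 7.74 at E12.5, against 11.17, 11.998 and 13.14 at E8.5, a difference of −4.94 ± 0.34 (SE, limma adjusted p = 2.05e-11). ILMN_2730329 gave 7.28, 7.80 and 8.61 at E12.5, against 10.98, 12.16 and 13.62 at E8.5, a difference of −4.32 ± 0.40 (SE, limma adjusted p = 2.65e-09). No E12.5 array reached an E8.5 array on either probe.

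H2ac22 (Hist1h2an) fell on all 4 of its tested probes. ILMN_2525595 gave 9.86, 10.78 and 11.10 at E12.5, against 13.04, 13.77 and 14.19 at E8.5, a difference of −3.09 ± 0.28 (SE, limma adjusted p = 1.56e-09). ILMN_2525581 gave 11.03, 11.56 and 12.07 at E12.5, against 13.55, 13.79 and 14.04 at E8.5, a difference of −2.21 ± 0.20 (SE). ILMN_1248830 gave 9.26, 9.81 and 10.78 at E12.5, against 11.67, 12.07 and 12.58 at E8.5, a difference of −2.18 ± 0.25 (SE). The groups did not overlap on these 3 probes, and with cyclic loess ILMN_2525595 and ILMN_1248830 shrank to −1.30 and −0.87 and ILMN_2525581 lost its call (−0.48, limma adjusted p = 0.151).

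H2ac10 (Hist1h2af) gave 9.31, 9.96 and 10.77 at E12.5, against 11.70, 12.39 and 13.08 at E8.5, a difference of −2.36 ± 0.29 (SE, limma adjusted p = 2.12e-07) that shrank to −1.0 with cyclic loess (limma adjusted p = 0.0262). H2ac20 (Hist2h2ac), which lies in the same chromosome 3 cluster as H2ac18, had probes called in opposite directions. ILMN_1218380 gave 10.33, 10.85 and 11.62 at E12.5, against 12.76, 12.97 and 13.49 at E8.5, a difference of −2.09 ± 0.24 (SE) that was not called with cyclic loess (−0.41, limma adjusted p = 0.311), while ILMN_1254276 rose by 1.54. Of the 29 histone genes with several probes, 16 had all of them tested, 9 only some and 4 none. H2ac20 was the only gene with calls in both directions between E12.5 and E8.5, which takes 2 or more tested probes.

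H2B probes mostly rose. Of 14 clustered H2B probes, 9 rose and 1 fell, with a median of 1.15 in the quantile-normalized values. The counts were 10 and 0 with median scaling and 5 and 0 with cyclic loess, with medians of 1.18 and 0.69. With median scaling the H2B median lay below the 1.96 of all probes, where 88% of all calls were higher. With cyclic loess it lay above the −0.01 of all probes. H2bc4 (Hist1h2bc) gave 8.57, 8.63 and 9.12 at E12.5, against 5.5, 5.77 and 7.20 at E8.5, a difference of 2.75 ± 0.27 (SE, limma adjusted p = 9.26e-09). H2bu2 (Hist3h2ba) gave 8.12, 8.96 and 8.96 at E12.5, against 5.59, 5.97 and 6.23 at E8.5, a difference of 2.72 ± 0.22 (SE, limma adjusted p = 3.42e-10). On the tested probes of these genes the E12.5 arrays did not overlap the E8.5 arrays. The single probe called lower, of H2bc1, was detected on no E12.5 array and on 3 of 6 E8.5 arrays. It was not called by the F test (adjusted p = 0.160).

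H1f2 (Hist1h1c), a linker histone, gave 10.02, 10.08 and 10.91 at E12.5, against 6.89, 7.74 and 9.46 at E8.5. It rose by 2.42 ± 0.38 (SE, limma adjusted p = 6.26e-06), and its 3 lowest E8.5 arrays, at 6.89 to 7.20, were those of the slide that also held E12.5. Against only the other slide's E8.5 arrays the difference was 1.60. The only other tested H1 probe, of H1f1, was not called (−0.24). None of the 7 H3 probes was called between E12.5 and E8.5 (differences of 0.01 to 0.55), although with the slide as a block 5 of them rose.

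Of 21 H4 probes, 5 rose and 1 fell, with a median of 0.08. Median scaling gave 15 higher and none lower with a median of 1.09, below the 1.96 of all probes. H4c8 (Hist1h4h) rose on both probes. ILMN_2525554 gave 6.71, 7.71 and 8.05 at E12.5, against 4.97, 5.5 and 5.78 at E8.5, a difference of 2.03 ± 0.22 (SE, limma adjusted p = 3.15e-08), or 0.74 with cyclic loess. ILMN_2664129 gave 6.5, 7.28 and 7.54 at E12.5, against 4.97, 5.14 and 5.41 at E8.5, a difference of 1.93 ± 0.20 (SE) that was not called with cyclic loess (0.37, limma adjusted p = 0.0829). No E12.5 array of either tested H4c8 probe overlapped E8.5. The H4 probe that fell was ILMN_1240763 of H4c9 (−1.22), a call lost with median scaling and with cyclic loess (limma adjusted p up to 0.0905). The other tested H4c9 probes were not called.

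**Figure D2:**
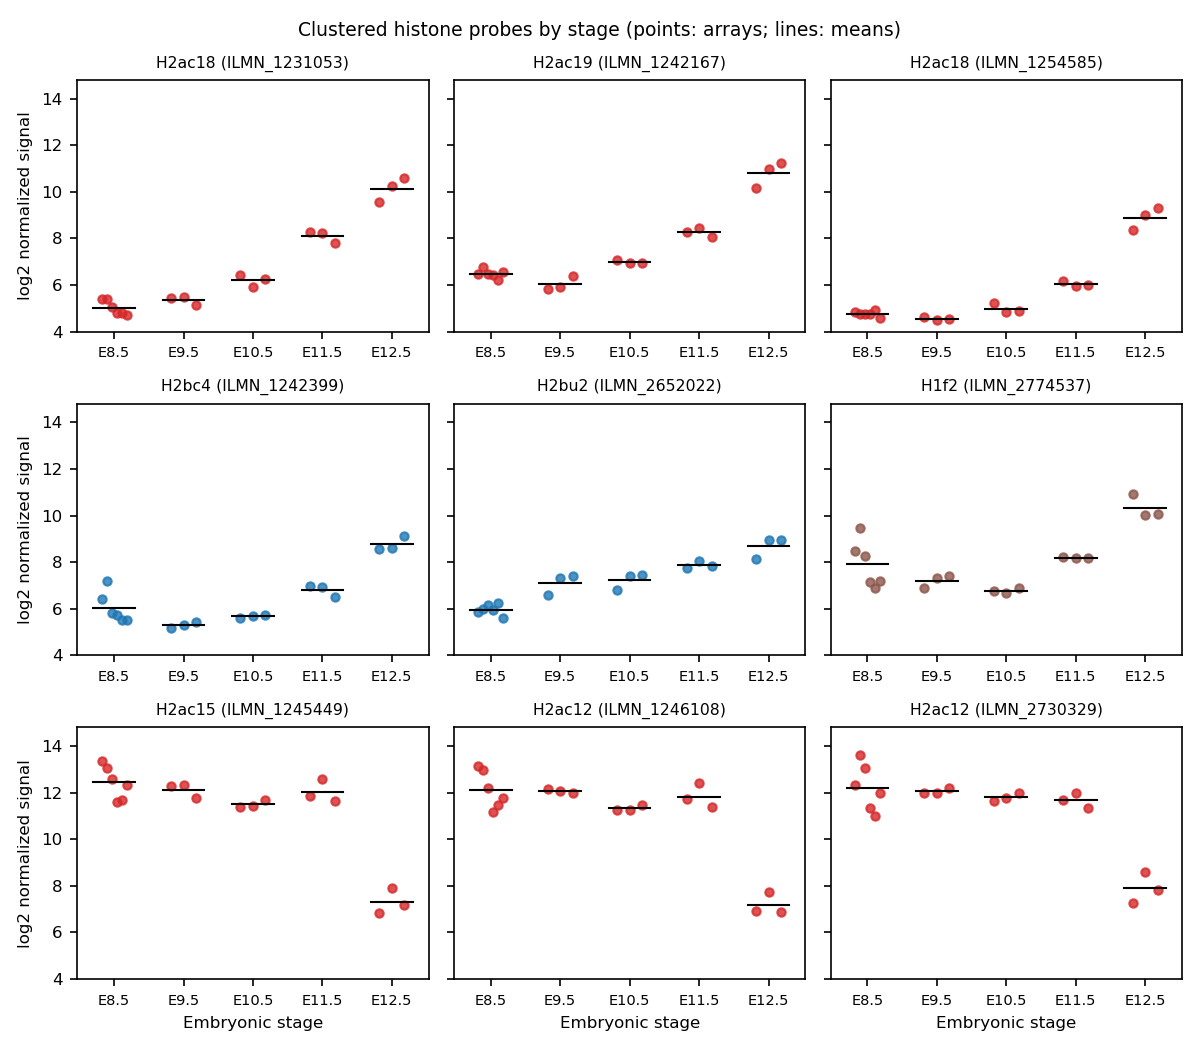
Log2 normalized signal of 9 clustered histone probes (panels) at each stage, with a point for each array (n = 6 at E8.5 and n = 3 at the later stages) and a line at the mean, coloured by family (H2A red, H2B blue, H1 brown). H2ac18 climbs to a mean of 10.14 at E12.5, while H2ac15 stays above 11 on every array up to E11.5 and lies between 6.83 and 7.91 at E12.5.

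The 3 tested variant histones took different courses. H2ax, the H2A variant that is phosphorylated at DNA breaks, had a mean of 7.81 ± 0.30 at E8.5 (SD, n = 6), 7.92 ± 0.33 at E9.5 and 8.91 ± 0.35 at E10.5 (SD, n = 3). Its E11.5 mean was 9.65 ± 0.08 and its E12.5 mean 7.70 ± 0.26 (SD, n = 3). It rose by 0.98 at E10.5 against E9.5 (limma adjusted p = 0.0318) and by 0.74 at E11.5 against E10.5 (limma adjusted p = 0.0470), and fell by 1.95 at E12.5 against E11.5 (limma adjusted p = 8.69e-07). The E10.5 call was lost in 6 of 17 alternatives (limma adjusted p up to 0.234), the random slide block among them, and the E11.5 call in 8 of 17 (up to 0.276), median scaling among them, while the E12.5 call was kept in all 17. Between E12.5 (7.40, 7.82 and 7.87) and E8.5 (lowest 7.39, median 7.88, highest 8.17) it overlapped, and the difference of −0.11 was not called (limma adjusted p = 0.633) and changed sign with the slide as a block (0.13).

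H3f3b, which encodes the replacement histone H3.3, gave 5.73, 6.19 and 6.26 at E12.5, against 7.76, 8.61 and 9.57 as the lowest, median and highest E8.5 values. It fell by 2.58 ± 0.34 (SE, limma adjusted p = 5.93e-07), and all E12.5 arrays lay below all E8.5 arrays. Its E8.5 arrays split by slide, with 3 at 7.76 to 7.90 and 3 at 9.32 to 9.57, and with cyclic loess the difference was −1.63.

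Macroh2a1, an H2A variant with a large globular domain, fell earlier. Its mean was 6.76 ± 0.12 at E8.5 (SD, n = 6), 5.91 ± 0.11 at E9.5 and 5.85 ± 0.21 at E10.5 (SD, n = 3). The E11.5 mean was 4.83 ± 0.19 and the E12.5 mean 4.46 ± 0.03 (SD, n = 3). It gave 4.43, 4.45 and 4.49 at E12.5, against 6.52, 6.80 and 6.84 as the lowest, median and highest E8.5 values, with no overlap. It was detected on every array up to E10.5, on 2 of 3 at E11.5 and on none at E12.5. E12.5 was thus at least 3.31-fold lower than E8.5 (limma adjusted p = 7.71e-12), where the bound takes the lowest detected signal of each E12.5 array. With median scaling the difference was 0.03 and was not called.

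**Figure D3:**
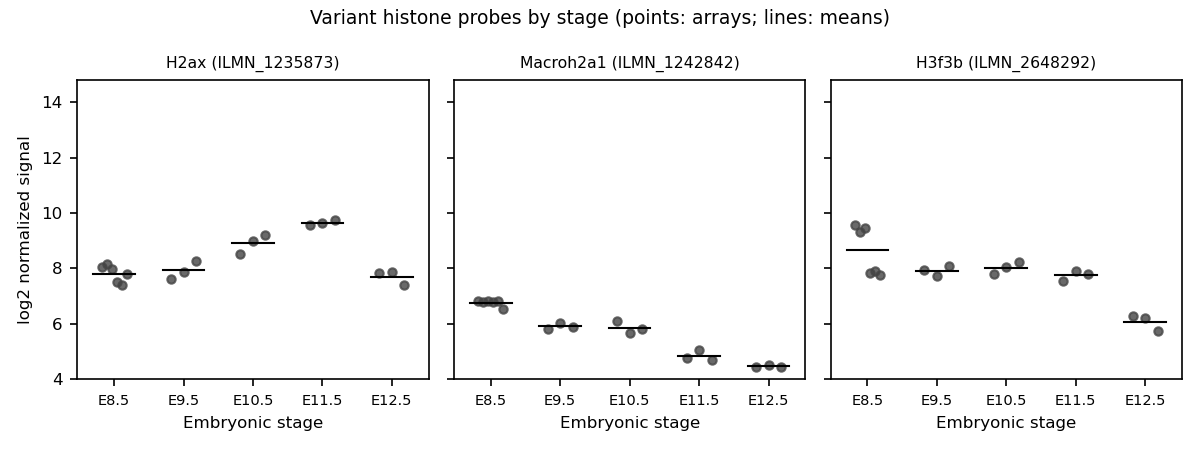
Log2 normalized signal of the 3 tested variant histone probes (panels) at each stage, with a point for each array (n = 6 at E8.5 and n = 3 at the later stages) and a line at the mean. H2ax has its highest mean, 9.65, at E11.5, Macroh2a1 is at 4.43 to 4.49 at E12.5, and H3f3b lies below its earlier arrays at E12.5.

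Day by day, few histone probes were called before E11.5. At E9.5 against E8.5, 2 of 69 were called (2.9%, against 16.6% of all probes, 7.57% higher and 8.99% lower), with H2bu2 up by 1.14 ± 0.22 (SE, limma adjusted p = 0.000683) and Macroh2a1 down by 0.85. Within the slide that holds both groups, 1 rose and 8 fell, beside 897 higher and 982 lower of all 17408 probes. With the slide as a block, 1 rose and 8 fell, beside 924 higher and 1167 lower. In both fits the histone share was no longer below that of all probes. Median scaling gave 1 higher and 7 lower of the 69, where 30.2% of all probes were called, so the histone share was again below that of all probes. Of all calls 23% were then higher, against 45.7% in the quantile-normalized values. At E10.5 against E9.5, where the source of the cells changes, 2 rose and none fell (2.9%, against 1.7% of all probes, 1.09% higher and 0.615% lower), H2ac19 by 0.94 ± 0.23 (SE, limma adjusted p = 0.0386) and H2ax. E9.5 and E10.5 share no slide, so slide and stage cannot be told apart, and with the slide as a random block no histone probe was called (H2ac19 adjusted p = 0.371, H2ax adjusted p = 0.223), against 0.126% of all probes. The arrays of the groups did not overlap for 36 of 69 histone probes and for 28.9% of all probes, the histone median was 0.38 against 0.01 for all probes, and 55 of 69 differences were above 0. A fit of only these 6 arrays called 15 histone probes. The share of all probes called in that fit is not reported here, so the count cannot be set beside it. Median scaling gave 3 higher there, with 45.5% of all calls higher against 63.9%.

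Replicate 3 of E9.5 stood apart for H2bc7 (Hist1h2bf), whose probe ILMN_2719202 gave 7.26, 7.46 and 11.62 at E9.5. Without that array 5 probes were called at E9.5 against E8.5 and 4 at E10.5 against E9.5. Without any single other array of E9.5 or E10.5, 0 or 1 probe was called at E10.5 against E9.5, so the E10.5 calls rest on few arrays.

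More histone probes rose at E11.5. Against E10.5, 19 histone probes rose and 1 fell, 20 of 69 (29%), while 5.09% of all probes tested were called higher and 5.43% lower. The arrays of the groups did not overlap for 46 of 69 histone probes and for 40.8% of all probes. The histone median was 0.50 and that of all probes −0.03. Of the H4 probes 10 of 21 rose and none fell, with a median of 0.96, of the H2A probes 5 of 22, of the H2B probes 2 of 14, of the H3 probes none of 7 and of the H1 probes 1 of 2. Both groups lay on the same slide. A fit of only these 6 arrays called 40 higher and 2 lower, beside 1916 higher and 2499 lower of all 17408 probes. Leaving out any single array left 9 to 14. Median scaling gave 22 higher and 1 lower, with 36.3% of all calls higher against 48.4%.

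The H4 probes with the widest E11.5 step were picked after their values were seen. H4c1 (Hist1h4a, ILMN_1230265) gave 8.15, 8.67 and 8.77 at E11.5, against 6.77, 6.87 and 6.96 at E10.5, a difference of 1.67 ± 0.44 (SE, limma adjusted p = 0.0166). H4c9 (Hist1h4i, ILMN_1240763) gave 8.64, 8.98 and 9.13 at E11.5, against 7.21, 7.33 and 7.55 at E10.5, a difference of 1.56 ± 0.31 (SE, limma adjusted p = 0.00230). H4c6 (Hist1h4f, ILMN_2525565) gave 7.76, 8.23 and 8.25 at E11.5, against 6.5, 6.58 and 6.75 at E10.5, a difference of 1.47 ± 0.32 (SE, limma adjusted p = 0.00444). On these 3 probes every E11.5 array lay above every E10.5 array. The call of H4c1 was lost in 6 of 16 alternatives (limma adjusted p up to 0.0711), 5 of which leave out a single array (any of E10.5, or E11.5 replicate 1 or 2), and those of H4c9 and H4c6 in none of 16.

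H2A and H4 probes mostly fell on the last day. At E12.5 against E11.5, 9 histone probes rose and 31 fell, 40 of 69 (58%), against 47% of all probes (23.6% higher and 23.5% lower), with a histone median of −0.49 and a median of −0.04 over all probes. The arrays of the groups did not overlap for 38 of 69 histone probes and for 53% of all probes, which is near the histone share. Of the H4 probes 2 rose and 11 fell, and of the H2A probes 3 rose and 16 fell. H4c1, H4c9 and H4c6 had differences of −2.56, −2.72 and −2.12, all called, on the probes named above. The other tested probes of these genes also had lower means at E12.5, but by smaller margins. Their E11.5 and E12.5 means were 9.27 and 8.65 for H4c1 (ILMN_1217362) and 8.55 and 7.67 for H4c6 (ILMN_1222313). For H4c9 these means were 9.003 and 7.58 (ILMN_1232524) and 8.79 and 7.59 (ILMN_1246576). The H2B probes did not move together, with 3 higher, 1 lower and a median of −0.01.

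The H4 count depended on the scaling. Median scaling gave 8 higher and 8 lower H4 probes at E12.5 against E11.5, and 24 higher and 25 lower histone probes in all, with the median of all probes at 2.20 and 94.2% of all calls higher against 50.1%. Cyclic loess gave none higher and 15 lower for H4. E12.5 and E11.5 lay on different slides and share none, so slide and stage cannot be told apart in this step.

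**Figure D4:**
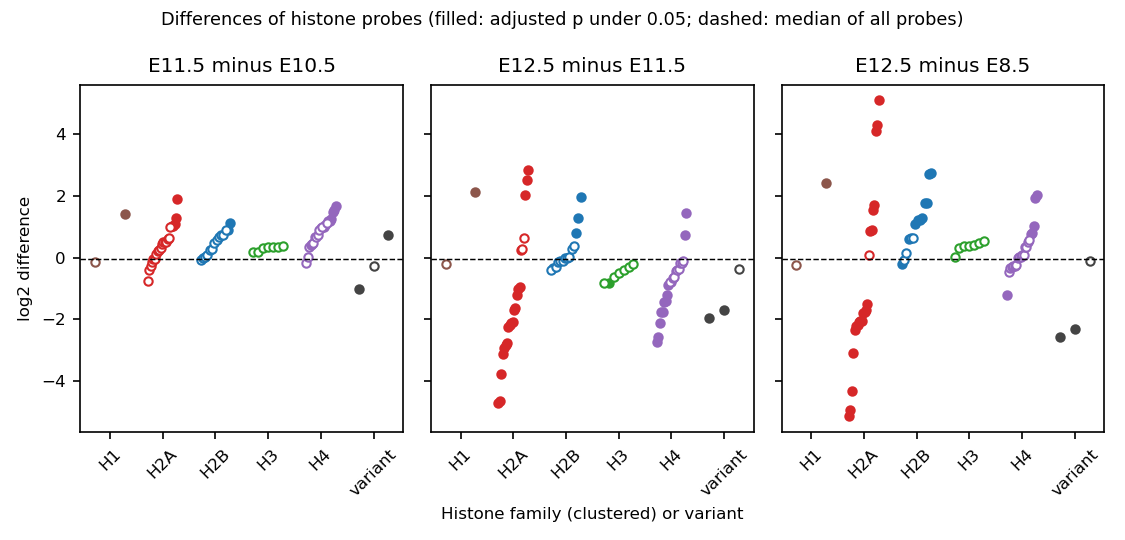
Log2 differences of the tested histone probes in 3 comparisons (panels), by clustered family or variant class, with filled points for an adjusted p under 0.05 and a dashed line at the median of all probes. H4 probes lie mostly above the line at E11.5 minus E10.5 and mostly below it at E12.5 minus E11.5, and H2A spans −5.14 to 5.11 at E12.5 minus E8.5.

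Genes that make, process and deposit histones were read beside them. Their counts, medians and fold bounds were taken in the quantile-normalized values only. Median scaling, which moved the median of all probes at E12.5 against E8.5 from −0.05 to 1.96, was not applied to these lists. The bounds therefore hold for quantile normalization alone. Of 21 tested genes of S phase and DNA replication, 20 fell and none rose at E12.5 against E8.5, with a median of −2.26, where 35.1% of all probes fell. Mcm5, Mcm6 (subunits of the replicative helicase) and Rpa2 (which binds single-stranded DNA) fell, with differences of −3.55, −3.08 and −2.80, and Ccne1 (cyclin E1) was detected on no E12.5 array and was at least 12.1-fold lower (limma adjusted p = 3.56e-15). Of these 21 genes, 17 fell between E12.5 and E11.5, where 23.5% of all probes fell. Of 25 tested histone chaperone and deposition genes, 17 fell and 2 rose at E12.5 against E8.5, with a median of −1.22, again beside 35.1% of all probes lower.

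Among the chaperones, Nasp (a chaperone of free histones), Chaf1b (a subunit of chromatin assembly factor CAF-1) and Ipo4 (an importin) fell, with differences of −3.42, −3.03 and −2.63. Chaf1a, another CAF-1 subunit, was detected on no E12.5 array and was at least 6.52-fold lower (limma adjusted p = 8.70e-12). Of 10 tested genes of histone mRNA transcription and 3′ end processing, 3 rose and 5 fell, a called share near the 67.3% of all probes. Lsm10 (of the U7 particle that cleaves histone messages) rose by 2.06 and Tut7 (a terminal uridylyltransferase) by 1.77, Cstf2 (a cleavage factor) fell by 2.36, and Ncbp2 (of the nuclear cap-binding complex) was detected on no E12.5 array and was at least 3.70-fold lower (limma adjusted p = 7.15e-09). Slbp, whose protein binds the stem-loop, and Npat, a regulator of histone gene transcription, were too dim to be tested. Of 2 tested variants outside the symbol rule, Cenpa (the centromeric H3 variant) fell by 1.25 and H2afj was not called (−0.33).

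Most histone probes were lower after 2 rounds of amplification. At E8.5, 2 histone probes were higher and 44 lower after 2 rounds than after 1 round, 46 of 69 (66.7%), against 47.2% of all 16027 probes tested (24.7% higher and 22.5% lower). The arrays of the groups did not overlap for 44 of 69 histone probes and for 42.9% of all probes. The histone median was −1.32 and that of all probes 0.05. Lower after 2 rounds were 16 of 22 H2A probes, 10 of 14 H2B probes, 4 of 7 H3 probes and 13 of 21 H4 probes, but neither of the 2 H1 probes. Median scaling gave 2 higher and 58 lower, with the median of all probes at −0.57 and 25.7% of all calls higher against 52.4%. All arrays with 2 rounds lay on a slide of their own, so rounds and slide cannot be told apart.

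H2ac12 gave 5.13, 5.14 and 5.49 after 2 rounds on ILMN_1246108, against 11.45, 12.19 and 13.26 as the lowest, median and highest value after 1 round, a difference of −7.06 ± 0.36 (SE, limma adjusted p = 1.46e-08). Its other probe gave 5.25, 5.38 and 6.22 after 2 rounds, against 11.29, 12.33 and 13.72 after 1 round (−6.80 ± 0.46, SE). H2ac15 gave 5.79, 5.81 and 6.46 after 2 rounds, against 11.83, 12.59 and 13.46 after 1 round (−6.58 ± 0.34, SE). These are the H2A genes whose start regions are printed above and that fell at E12.5, and on none of the 3 probes did the groups overlap.

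H2bc7 (ILMN_2719202) gave 4.45, 4.59 and 4.78 after 2 rounds and was detected on 1 of these 3 arrays, against 8.63, 9.78 and 11.40 after 1 round (−5.34 ± 0.54, SE, limma adjusted p = 4.38e-06). H2ac18 had differences of 0.18 and 0.06 that were not called. Its means after 1 round, 5.03 and 4.74, lay near the level of undetected probes, which leaves little room for a loss. Its tested probes were detected on 2 and 1 of the 3 E8.5 arrays with 2 rounds. H2ac19 was detected on no E8.5 array with 2 rounds and was at least 4.09-fold lower there (limma adjusted p = 8.60e-07). The H2ac19 probe passed the detection filter only through the arrays with 1 round. Over both stages with 2 rounds, 10 probes detected on all 18 arrays with 1 round were detected on fewer than 3 of the 6 arrays with 2 rounds. The 4 of these detected on none were probes of H2ac19, H2ac8, H2bc13 and H4c8. All 4 entered the test of rounds only through the arrays with 1 round. The number of histone probes detected was 44 to 55 of 96 per array with 2 rounds and 59 to 71 with 1 round, while 13159 to 14037 of all probes were detected with 2 rounds.

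The 2 probes that were higher after 2 rounds were of H3f3b and H2bc21. H3f3b, a variant, gave 9.89, 10.02 and 10.59 after 2 rounds, against 8.09, 8.96 and 9.94 after 1 round, a difference of 1.18 ± 0.44 (SE, limma adjusted p = 0.0434), and the groups overlapped. Its arrays with 1 round split by slide, at 8.09 to 8.23 and 9.69 to 9.94, and the call was lost in 9 of 19 alternatives. These were no filter, the replicate block, only the brighter slide (0.35, limma adjusted p = 0.188), and leaving out any array with 2 rounds or E8.5 replicate 4, 5 or 6. H2bc21 (Hist2h2be, ILMN_1231066) gave 5.09, 5.20 and 6.09 after 2 rounds, against 4.39, 4.54 and 4.68 after 1 round, where 2 of 6 arrays detected it (0.93 ± 0.18, SE, limma adjusted p = 0.000982). This probe entered the test through the arrays with 2 rounds, and its call was lost with median scaling (0.33, limma adjusted p = 0.277). The other H2bc21 probe, ILMN_1253851, was lower after 2 rounds, at 5.42, 5.48 and 5.51. After 1 round its lowest, median and highest values were 7.06, 7.31 and 7.82. Of the other variants, Macroh2a1 was lower by 0.92 after 2 rounds (limma adjusted p = 0.00211) and H2ax was not called (0.56, limma adjusted p = 0.0869).

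**Figure D5:**
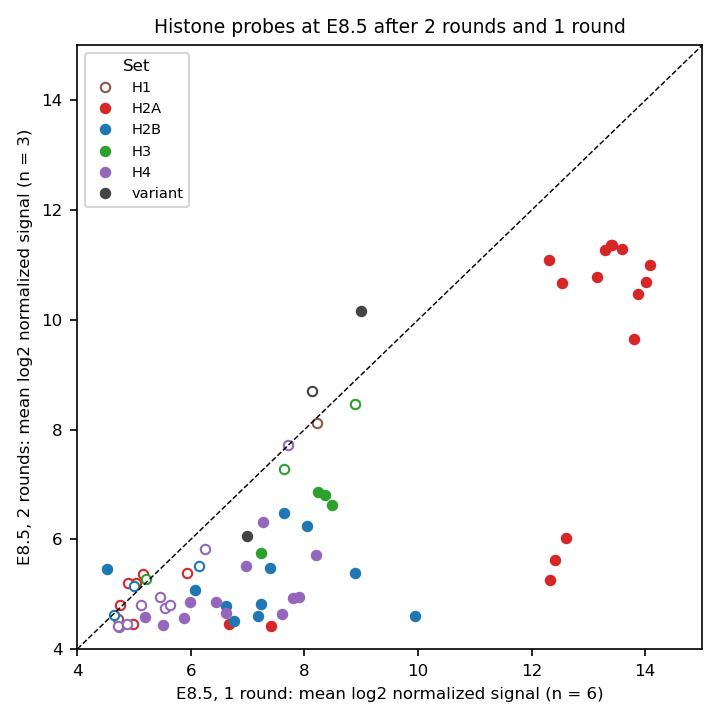
Mean log2 normalized signal of each tested histone probe at E8.5 after 2 rounds (vertical axis, n = 3) and after 1 round (horizontal axis, n = 6), coloured by clustered family or variant class, with filled points for an adjusted p under 0.05 and a dashed line of equality. Most points lie below the line, and the 3 H2A points far below it at about 12 after 1 round are the probes of H2ac12 and H2ac15.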

How the data were processed

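Total RNA of sorted cells was measured on Illumina bead arrays, 24 in all. The deposited intensity values are a mean signal per probe and array, called non-normalized in the file headers, although the arrays of 2 slides share nearly the same distribution (quantiles differ by at most 0.642%). The detection p-value of each probe was deposited with them, per the file headers. The authors' processed values, on a scale like log2 and of unstated transform, served as an alternative; their medians were 5.90 on every array with 1 round and 7.21 on every array with 2 rounds. The background setting of the scanner software is not given in the sources used here.

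Signals were normalized with neqc of limma 3.58.1 in R 4.3.3 (negative controls inferred from the detection p, offset 16, quantile), over the 18 arrays with 1 round, and over all 24 for the comparison of rounds. Linear models with an intensity trend were fitted to every probe that passed the filter, and tested on simulated data. One fit held the 18 arrays and another the 9 E8.5 arrays. The platform annotation gives a single symbol for 29490 probes, more than 1 for 8 and none for 16221, updated to symbols of RefSeq GRCm38.p6. No probe sequence was used. Replicates up to E10.5 are pools, later ones single embryos, and every p-value covers the spread among these arrays alone, whose number limits precision.

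The histone genes and the 8 gene lists were chosen with earlier results of these data known. The text names the variants, up to 8 rising and 8 falling clustered probes with the largest E12.5 minus E8.5 difference among called probes without overlap, up to 4 probes each way between rounds, and up to 4 members of each list by smallest adjusted p. Probes of single steps were chosen after their values were seen. Same-numbered arrays deviated together by correlations of −0.14 to 0.15, so the numbers were not taken as pairs. Alternatives were other background corrections, scalings, filters, slide and replicate blocks, single slides and leaving out each array.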

Additional observations from a re-analysis of the deposited data

Results flagged for a closer look

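Replicate 6 of E8.5 with 1 round stood apart from its group for Macroh2a1, at 6.52, while the other E8.5 arrays lay at 6.77 to 6.84. It was the only such array among 24 named probes checked, where chance alone marks about 1 group in 20. The E7.5 arrays entered no comparison here, and 42 of the 96 histone probes were detected on all 3 of them. Of these, 38 were also among the 40 detected on all 3 E8.5 arrays with 2 rounds.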

How the results depend on the processing

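Counts of histone probes called moved by over 1.5 times in these cases. At E10.5 against E9.5 (2 called) there was 1 with normexp and offset 50, 1 with the authors' processed values, 7 with cyclic loess, 0 with no filter on dim probes, 15 with only these groups fitted and 0 with the slide as a random block. At E9.5 against E8.5 (2) there were 8 with median scaling, 4 with cyclic loess and 9 with the slide as a fixed block or within a slide. At E12.5 against E8.5 (40) cyclic loess gave 22. At E11.5 against E10.5 (20) there were 9 with no filter and 42 with only these groups, which is also the value within their slide. With 1 probe per gene, which leaves fewer probes, the counts were 12 at E11.5 against E10.5, 26 at E12.5 against E11.5, 39 in the F test and 30 between rounds. Leaving out each array in turn gave 36 to 47 at E12.5 against E8.5, 2 to 5 at E9.5, 0 to 4 at E10.5, 9 to 14 at E11.5, 35 to 45 at E12.5 against E11.5, 55 to 63 in the F test and 44 to 47 between rounds. Same-numbered arrays were not taken as pairs; with a replicate block the counts were 10 at E9.5 and 10 at E10.5, and within 1.5 times elsewhere. Of 1368 values of named probes under alternatives, 1286 kept direction and call, 76 lost the call and 6 changed sign. The sign changes were Macroh2a1 at E12.5 against E8.5 with median scaling (0.029) and H4c8 at E12.5 against E11.5 with cyclic loess (−0.68 and −0.19 on its tested probes). H2ax at E12.5 against E8.5 also changed sign (0.13 with the slide as a block and within a slide, and −0.20 to 0.034 when leaving out each array). Except for the fewer probes, the cause was not tested. Dim probes near background limit the smallest differences, most of all at E12.5.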
